A study of Homo sapiens with 6 samples.

Results

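The regions described here are the CTCF binding regions at 10 imprinted genes, H19, IGF2, KCNQ1, CDKN1C, DLK1, MEG3, GNAS, PEG3, MEST and PEG10, in the human colon cancer line HCT-116. The genes were chosen with earlier results of these data known. Given the genes, regions were taken by position alone: a region counted when it touched one of these genes or the 10 kb on either side. Regions in 2 continuous stretches were added, 930 kb on chromosome 11 from H19 to CDKN1C and 160 kb on chromosome 14 from DLK1 to MEG3. This gave 58 of the 60235 regions of the series. CTCF was mapped by chromatin immunoprecipitation and sequencing in wild-type cells (WT) and in the clones D3 and E4, for which the labels give a CTCF mutation as genotype without saying what was altered. Each population had 1 CTCF library, each mutant population is 1 clone of this line, and no cells were treated. The series has 6 samples in all, and the 3 libraries made without antibody were not analysed here.

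An imprinted gene is expressed mainly from the chromosome of 1 parent. Many lie in clusters under a control region whose DNA is methylated on only one parental chromosome. Upstream of H19 such a region binds CTCF when unmethylated, on the maternal chromosome, and there insulates IGF2 from enhancers it would otherwise share with H19. CTCF with cohesin also anchors chromatin loops, and CTCF sites occur at control regions of several other imprinted clusters. The lists hold no allele and no methylation information, so a peak here is the sum over both parental chromosomes.

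Each list gives the authors' fold enrichment and −log10 q per peak. Strength is given below as the percentile of a peak by −log10 q within its own list, where 100 is the strongest. The D3 list held 57935 peaks, E4 39434 and WT 38645, and their median −log10 q was 8.66, 7.71 and 5.33. Over all regions called in every list the median fold was 8.93 in D3, 7.08 in E4 and 5.63 in WT, so a fold that is higher in a clone than in WT has to be read against that shift. The depth of the libraries is unknown. A region is the union of peaks that overlap by at least 1 bp in any of the lists. Percentiles within lists of unequal length do not order the libraries. For that order each region was also ranked among the 32495 regions called in all 3 lists, called the shared percentile below, and its difference is WT minus clone in points. Between the scales the order of WT and D3 differed in 10 and that of WT and E4 in 1 of the 31 shared regions at these loci. Positions of peaks are on hg19.

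RefSeq promoters on GRCh38.p14, running from 250 bases before to 50 bases after a start, were available for 4 of the 10 members. The 5 below are shown because CTCF regions did or did not lie at those starts. Capitals mark a pair of spellings of the core of the CTCF motif, searched on both strands. The longer is CC, then any 3 letters, then AGNNGGC, and the shorter is AGNNGGCGC, so that both contain the letters AGNNGGC. The longer was present in 10.6% and the shorter in 10.4% of all 35116 promoters, and the shorter was added after the MEST sequence had been read. The GNAS promoters are those of its first start (chr20:58839498-58839797, plus strand) and of a start 13.2 kb further on (chr20:58852731-58853030, plus strand). The MEST promoters are those of its first start (chr7:130485925-130486224, plus strand) and of a start 5.88 kb further on (chr7:130491808-130492107, plus strand). The H19 promoter is that of its outermost start (chr11:2001217-2001516, minus strand). These GRCh38 positions were not set against the hg19 positions of the peaks. Only distances within a gene are compared below, which takes them to be alike in both builds.
GNAS first start: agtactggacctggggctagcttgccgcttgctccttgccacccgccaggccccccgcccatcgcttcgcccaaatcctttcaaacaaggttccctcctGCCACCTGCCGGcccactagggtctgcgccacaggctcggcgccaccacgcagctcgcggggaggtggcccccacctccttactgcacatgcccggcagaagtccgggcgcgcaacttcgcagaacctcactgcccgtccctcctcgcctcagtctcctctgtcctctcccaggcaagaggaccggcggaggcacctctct
GNAS later start: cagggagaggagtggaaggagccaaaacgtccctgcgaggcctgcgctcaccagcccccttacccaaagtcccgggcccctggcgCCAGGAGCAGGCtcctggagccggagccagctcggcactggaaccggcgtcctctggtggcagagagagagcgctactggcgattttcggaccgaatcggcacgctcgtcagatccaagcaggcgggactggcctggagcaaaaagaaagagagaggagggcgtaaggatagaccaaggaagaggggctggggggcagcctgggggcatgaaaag
MEST first start: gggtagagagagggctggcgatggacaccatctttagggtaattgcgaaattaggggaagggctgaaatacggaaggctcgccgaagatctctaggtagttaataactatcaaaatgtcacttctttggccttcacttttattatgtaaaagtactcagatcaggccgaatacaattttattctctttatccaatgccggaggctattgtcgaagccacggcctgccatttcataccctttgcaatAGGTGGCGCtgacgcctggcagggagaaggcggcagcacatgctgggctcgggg
MEST later start: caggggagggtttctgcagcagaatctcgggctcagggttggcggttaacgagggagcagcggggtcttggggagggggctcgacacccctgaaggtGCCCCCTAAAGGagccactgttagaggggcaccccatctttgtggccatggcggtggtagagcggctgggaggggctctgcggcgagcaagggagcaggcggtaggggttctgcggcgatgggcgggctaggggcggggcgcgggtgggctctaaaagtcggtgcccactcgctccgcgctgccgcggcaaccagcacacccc
H19 outermost start: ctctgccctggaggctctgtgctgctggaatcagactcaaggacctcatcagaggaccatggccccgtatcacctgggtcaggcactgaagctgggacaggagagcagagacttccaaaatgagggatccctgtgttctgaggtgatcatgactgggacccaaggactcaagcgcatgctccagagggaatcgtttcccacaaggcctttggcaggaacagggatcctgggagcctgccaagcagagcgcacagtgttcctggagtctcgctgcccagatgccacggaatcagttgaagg

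The first GNAS promoter held 1 match to the longer spelling on the minus strand, at position −151 relative to the start. The later GNAS promoter held 1 on the plus strand at −165, and that of a GNAS start 12.97 kb after the first, not printed, held none. The first MEST promoter held AGGTGGCGC, a match to the shorter spelling, at −4, and a MEST start 0.172 kb further on, not printed, has the same letters in its window. The later MEST promoter held 1 match to the longer spelling at −153. The H19 promoter held neither, which says only that these letters are not in that window. MEG3, whose regions lay inside the gene, is not shown.

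Of the 10 members, 8 had at least 1 peak in every list, as did 17 of the 24 other imprinted genes described below. The share over all genes was not computed, and the windows of the members ran from 22.6 kb at CDKN1C to 424.1 kb at KCNQ1. H19, IGF2, KCNQ1, CDKN1C, GNAS, MEST and PEG10 each had a region over their start or within 1 kb of it, and all 7 of these regions were called in WT, D3 and E4. The distance of 1 kb was chosen after the values had been seen, and the share among all gene starts was not computed, so this count describes these genes only. MEG3 had its regions inside the gene, PEG3 had a single weak peak in D3, and DLK1 had no region in any library. The plot of percentiles by gene shows these regions in order along each member.

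**Figure D1:**
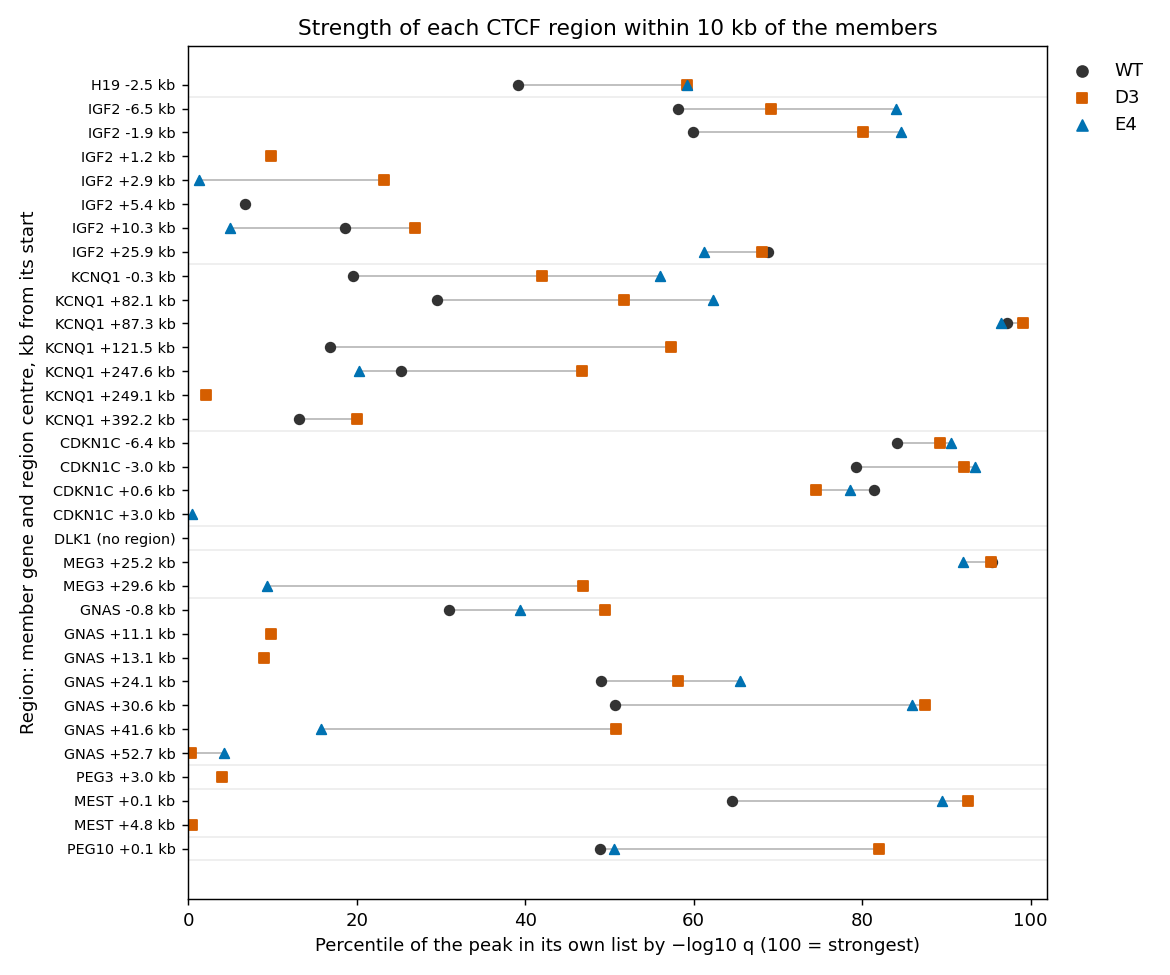
Percentile of each peak by −log10 q within its own list (x axis, 100 is the strongest) for every region within 10 kb of the 10 members (y axis, centre of the region in kb from the gene's start in the direction of transcription). Circles are WT, squares D3 and triangles E4, with 1 library each. The strongest KCNQ1 region and the strongest MEG3 region sit above a percentile of 90 in all 3 libraries, while several regions have a square only.

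Over all 58 regions, 31 were called in all 3 lists, which is 53.4% (exact Clopper-Pearson 95% interval 39.9 to 66.7, counting error only), against 53.9% of all regions of the series. D3 alone had 16 (27.6%, background 26.1%), both clones without WT 5 (8.62%, background 9.31%), and D3 with WT but not E4 4 (6.90%, background 6.62%). E4 alone had 1 and WT alone had 1, with backgrounds of 1.45% and 2.37%. No region was shared by E4 and WT only, against 0.216% of all regions. Each of these shares was near its background. Of the 34 regions whose −log10 q reached 5 in any list, 30 were called in all 3, or 88.2% (72.5 to 96.7), against 78.6% of such regions in the series. When peaks below that value were dropped from every list, 67.6% (49.5 to 82.6) were called in all 3, against 46.5% over the series. The 16 regions of D3 alone, of 56 with a D3 peak (background 27.2%), were weak, with a median at percentile 9.84. Regions of D3 alone were weak over the series too, with a median at percentile 17.2. At equal list length 1 region of 34 was called in D3 alone (7.38% over the series). At that length 2 of 32 regions of both clones lacked WT (8.43% over the series) and 4 of 36 regions with a WT peak were called in WT alone (8.64%).

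**Figure D2:**
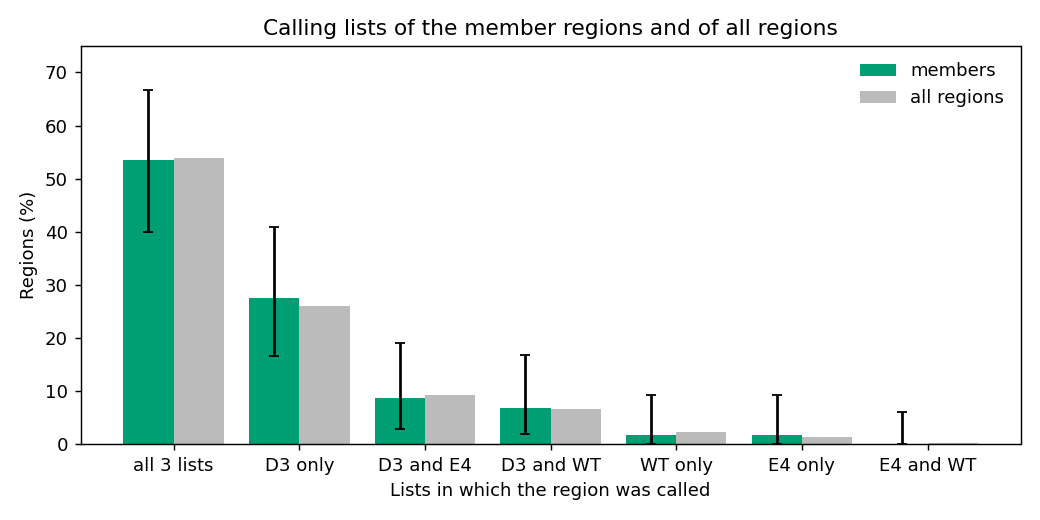
Share of regions (y axis, percent) by the lists in which they were called (x axis). Green bars are the 58 regions of the imprinted loci with exact 95% intervals as error bars, which cover counting error only, and grey bars are all 60235 regions. In each class the grey bar lies within the interval of the green bar.

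H19, a non-coding RNA expressed from the maternal chromosome, had 1 region, chr11:2019391-2023773. It ran from −4.71 to −0.326 kb relative to the H19 start, and with 4383 bp it was wider than 99.8% of all regions. D3 covered it with 1 peak of 4364 bp and E4 with 1 of 4256 bp. WT had 2 separate peaks there, of 2704 bp next to the gene and of 366 bp at the far end, so the stretch between them was called in the clones and not in WT. The fold was 4.77 in WT, 7.04 in D3 and 7.31 in E4. The stronger WT peak lay at percentile 39.1 of its list, against 59.3 in D3 and 59.2 in E4. Its shared percentile was 30.6 in WT, 30.8 in D3 and 51.0 in E4. The difference was −0.208 points for D3 and −20.4 points for E4. By its distance from the gene's 3′ end, which was 6.09 kb in RefSeq, the outermost H19 start printed above falls in the range of 2.98 to 7.37 kb that the region spans. On that distance it lies inside the D3 peak and the E4 peak, but between the 2 WT peaks, where WT had no call.

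**Figure D3:**
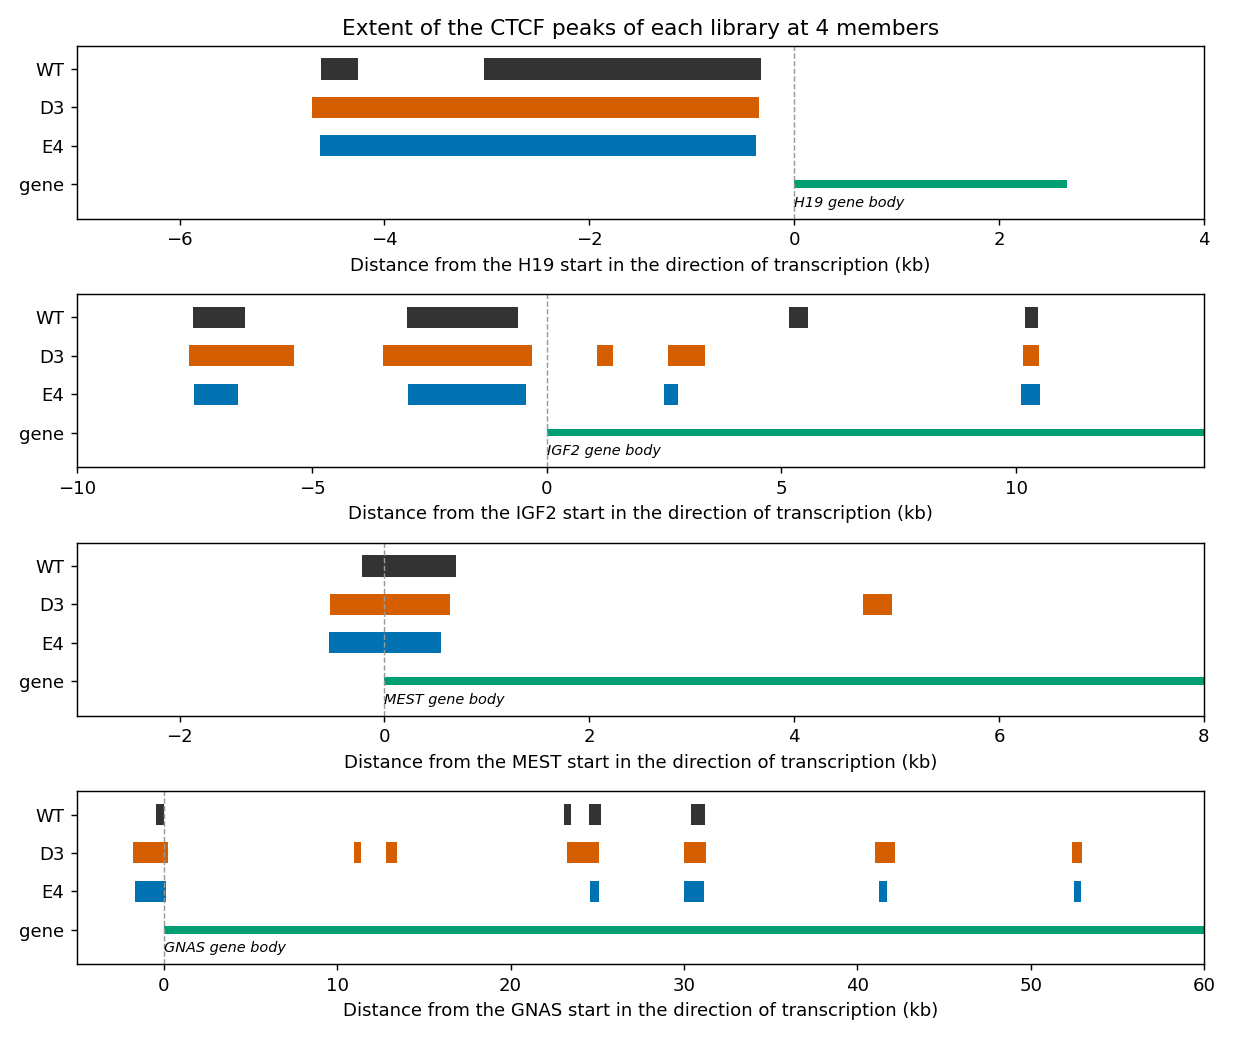
Extent of each peak of WT, D3 and E4 (rows) at H19, IGF2, MEST and GNAS, as distance from the gene's start in kb in the direction of transcription (x axis), with the gene body as a bar below. At H19 the WT row shows 2 peaks of 2704 and 366 bp where D3 has 1 peak of 4364 bp and E4 1 of 4256 bp.

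IGF2, the insulin-like growth factor expressed from the paternal chromosome, had 7 regions, of which 4 were called in all 3 lists. The widest, chr11:2171143-2174315, ended 0.310 kb upstream of the gene's start and measured 3173 bp. Its fold was 5.38 in WT, 10.8 in D3 and 11.6 in E4, at percentiles 59.9, 80.1 and 84.7. The next region, chr11:2176216-2178459, lay from −7.63 to −5.38 kb relative to the start, towards INS, the insulin gene. It was at percentile 58.1 in WT, 69.2 in D3 and 84.0 in E4, while its shared percentile of 51.3 in WT lay above the 46.1 of D3 and below the 80.7 of E4. Both regions were called in every library and ranked highest in E4 on either scale. Beyond the 3′ end of IGF2, chr11:2144212-2145595 held the strongest WT peak of the gene, at percentile 68.8, with 68.2 in D3 and 61.2 in E4. Its shared percentile was 63.5 in WT, 44.5 in D3 and 53.3 in E4, so D3 was lowest on that scale. The other IGF2 regions lay inside the gene and were weak. Of these, 1 was called in all 3 lists (percentile 18.7 in WT), 1 in both clones, 1 in D3 and 1 in WT. The last, chr11:2165276-2165672 at percentile 6.70, was the only one of the 36 regions with a WT peak that neither clone had (background 3.75%). The nearest D3 peak was 1.796 kb and the nearest E4 peak 2.37 kb away.

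Between H19 and CDKN1C the regions were dense around the IGF2, INS and TH genes and sparse inside KCNQ1. The stretch held 43 regions, or 4.62 per 100 kb, against 1.97 per 100 kb over the genome. The genome value takes in each chromosome up to its last peak. No density was computed for the sequence around the stretch or for gene-rich sequence, so the contrast is not particular to imprinted loci. It contained 31 WT, 41 D3 and 28 E4 peaks. Away from the 4 members the stretch held 24 regions. Of these, 13 were called in all 3 lists (background 53.9%) and 8 in D3 only (26.1%). A further 2 were called in D3 and WT (6.62%) and 1 in both clones (9.31%). At TH, the gene for tyrosine hydroxylase next to INS, and upstream of it lay 5 regions that every library called. All 5 were at or above percentile 81.1 in each library, and chr11:2207655-2208421 was the strongest of them in WT (percentile 94.7, 92.5 in D3 and 86.8 in E4). At ASCL2, an intestinal stem cell factor, the nearest region was called in D3 only and lay beyond the gene's 3′ end, whereas chr11:2320139-2320986 and chr11:2326063-2327798 upstream were called in all 3. The former had the highest standing of WT against D3 among the 31 shared regions at these loci, with a difference of 27.9 points. On the other side of IGF2, chr11:2095236-2096231 had the highest against E4, with 22.4 points. The widest region of all 58, chr11:2420079-2425138 over the start of TSSC4, measured 5060 bp. It was filled by the D3 peak, while the E4 peak had 2515 bp and the WT peak 2167 bp. E4 had its highest value among the 58 regions here, at percentile 97.8, against 90.7 in WT and 83.3 in D3. At CD81, which encodes a membrane tetraspanin, chr11:2396837-2397222 was called in D3 alone with a −log10 q of 7.66 (percentile 46.1). The nearest E4 peak was 13.5 kb and the nearest WT peak 24.0 kb away.

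**Figure D4:**
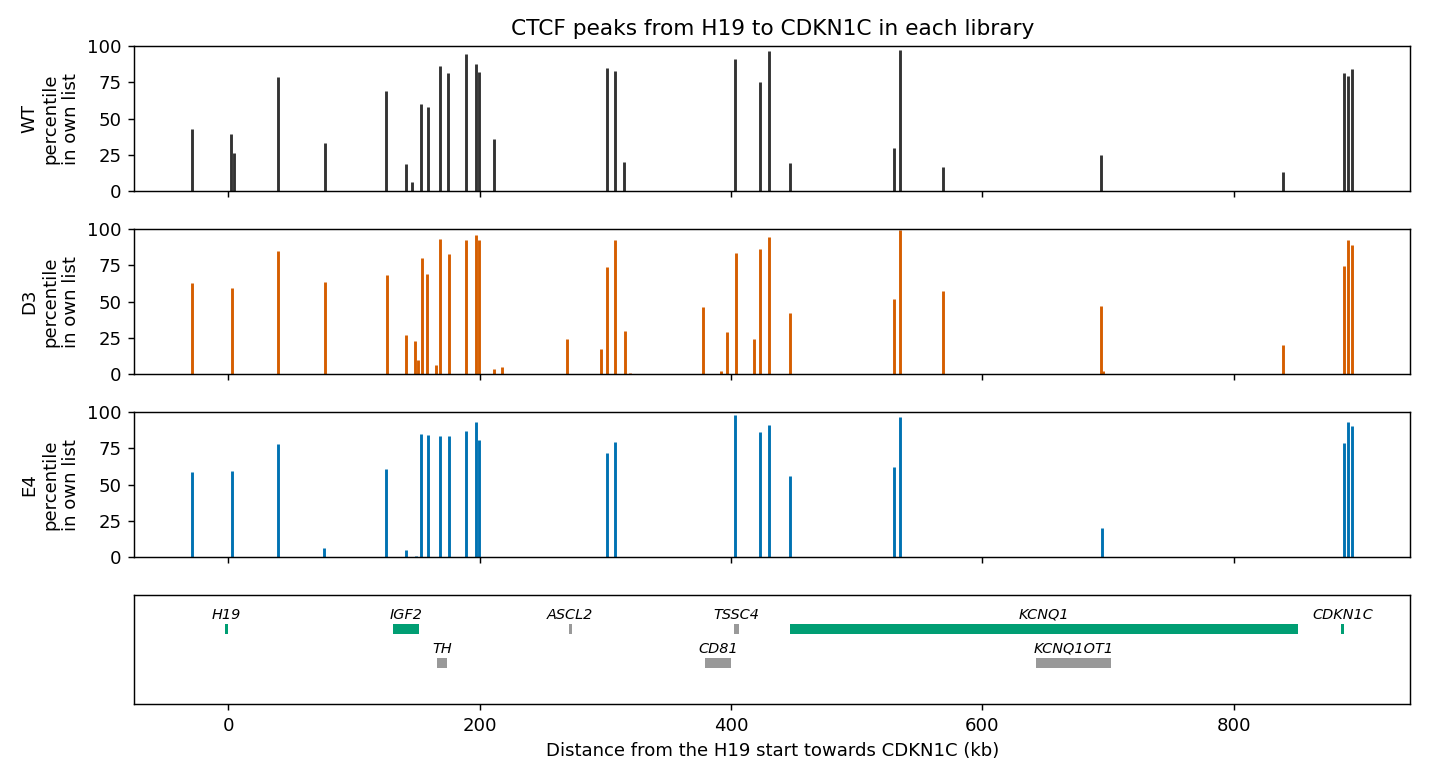
Percentile of each CTCF peak in its own list (y axes, 1 panel each for WT, D3 and E4) along the chromosome 11 stretch, as distance from the H19 start towards CDKN1C in kb (x axis). Gene bodies are drawn in the lowest panel, members in green and other genes in grey. Peaks cluster between IGF2 and TH and thin out inside KCNQ1, where the longest gap between regions was 142.7 kb.

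KCNQ1, a potassium channel gene that contains the start of the antisense RNA KCNQ1OT1, had 7 regions, or 1.65 per 100 kb. The strongest, chr11:2552212-2554755, lay 86.0 to 88.5 kb inside the gene. WT had it at percentile 97.2 with a fold of 10.8, D3 at 99.1 with 19.99 and E4 at 96.5 with 15.05. It was the strongest peak of WT and of D3 among the 58 regions. Its neighbour chr11:2547920-2548740 was weaker in every list, at percentiles 29.5, 51.7 and 62.3 for WT, D3 and E4, with differences of 0.195 points for D3 and −33.7 for E4. The region over the KCNQ1 start, chr11:2465119-2466682, was 374 bp wide in WT, 1100 bp in D3 and 1564 bp in E4. It lay at percentile 19.6 in WT, 42.0 in D3 and 56.0 in E4. Among shared regions the difference was −35.2 points for E4 and 1.01 points for D3. Of the 7 regions, 4 were called in all 3 lists, 2 in D3 and WT and 1 in D3. E4 thus lacked chr11:2587390-2588152, which was at percentile 57.3 in D3 and 16.9 in WT, and chr11:2858141-2858698, at 20.1 and 13.2. The nearest E4 peaks were 32.7 and 45.3 kb away.

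No region lay at the start of KCNQ1OT1, the paternally expressed RNA whose promoter is the control region of the KCNQ1 domain. The nearest peak was 5.78 kb away in D3, 7.13 kb in E4 and 7.22 kb in WT, in each case inside KCNQ1OT1. The region that all 3 lists shared there, chr11:2713457-2714099, was at percentile 25.3 in WT, 46.8 in D3 and 20.3 in E4, with differences of 1.82 points for D3 and 5.97 for E4. On either side of this pair of regions the stretch had its longest gaps without a peak in any list, of 142.7 kb and 125.3 kb.

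CDKN1C, a cyclin-dependent kinase inhibitor expressed from the maternal chromosome, had 4 regions, or 17.7 per 100 kb. The 3 at and upstream of its start were called in every library. The first of them, chr11:2905982-2906888, lay inside the gene from 0.175 to 1.08 kb after the start, at percentile 81.4 in WT, 74.6 in D3 and 78.6 in E4. Upstream, chr11:2909322-2910729 was at percentiles 79.2, 92.1 and 93.5, and chr11:2912326-2914521 at percentiles 84.1, 89.2 and 90.6. For the latter the difference was 0.357 points for D3 and −7.31 for E4. The lowest of these values within whole lists was 74.6. Among shared regions, chr11:2905982-2906888 was at 78.1 in WT, 55.2 in D3 and 74.1 in E4. Its difference was 22.9 points for D3 and 4.01 for E4. For chr11:2909322-2910729 the differences were −10.4 and −16.5 points. The fourth, chr11:2903966-2904242, was called in E4 only, at percentile 0.415 of that list.

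DLK1 encodes a Notch ligand homologue expressed from the paternal chromosome, and MEG3 is the maternally expressed non-coding RNA downstream of it. DLK1 had no region within 10 kb. The nearest peaks downstream were chr14:101213194-101213729, 11.7 kb from its 3′ end, and chr14:101215235-101216013, both called in D3 only at percentiles 18.4 and 20.4. On the upstream side a region of the clones lay 18.1 kb from the DLK1 start, outside the stretch, and the nearest WT peak was 63.2 kb away. MEG3 had its main region inside the gene, chr14:101317052-101318235, 24.6 kb after the start. This was a strong region everywhere, at percentile 95.4 in WT, 95.4 in D3 and 92.0 in E4, with folds of 11.3, 13.3 and 14.4. A second MEG3 region 3.40 kb further on, chr14:101321636-101322462, was found in D3 and E4 but lacked a WT peak. It had a −log10 q of 7.85 in D3 (percentile 46.9) and of 2.16 in E4 (9.35). The 101.0 kb between the downstream neighbours of DLK1 and the first MEG3 region, which include the intergenic part of the cluster and the MEG3 start, held no peak in any list.

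GNAS, which encodes the stimulatory G protein alpha subunit and has several imprinted starts, held 7 regions, of which 3 were called in all 3 lists. The region over its first start, the start of the neuroendocrine secretory protein transcript, was chr20:57413021-57415041. The D3 peak there measured 2021 bp and the E4 peak 1815 bp, while the WT peak measured 448 bp. It lay at percentile 30.9 in WT, 49.5 in D3 and 39.4 in E4. Its shared percentile was 22.3 in WT, 18.1 in D3 and 28.6 in E4, so D3 was highest on the first scale and lowest on the second. At chr20:57437861-57440015 WT had 2 peaks, and its stronger one was at percentile 49.0, against 58.2 in D3 and 65.5 in E4. Its shared percentile of 41.1 in WT lay above the 29.2 of D3 and below the 58.4 of E4. The region chr20:57444798-57446063, 30.0 kb after the first start, was at percentile 50.6 in WT, 87.5 in D3 and 85.9 in E4. Its fold was 4.72 in WT, 13.0 in D3 and 9.94 in E4. This was the lowest standing of WT against either clone among the 31 shared regions, with differences of −34.8 and −40.1 points.

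Both clones also had 2 GNAS regions that WT lacked. These were chr20:57455834-57456949, with a −log10 q of 8.86 in D3 and 2.79 in E4, and the weak chr20:57467189-57467767. The nearest WT peaks were 9.85 and 21.2 kb away. D3 alone had chr20:57425746-57426143 and chr20:57427609-57428225, at percentiles 9.85 and 8.998. The latter spans 12.8 to 13.4 kb after the first start on hg19, and RefSeq starts lie 12.97 and 13.2 kb after the first, of which the second is printed above.

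MEST, a paternally expressed gene of the alpha/beta hydrolase family, had 1 region in every library, over its first start at chr7:130125505-130126747. The fold was 5.89 in WT, 15.8 in D3 and 12.5 in E4, at percentiles 64.6, 92.6 and 89.4. WT was lower in rank than either clone, with differences among shared regions of −28.1 points for D3 and −28.6 for E4. The first RefSeq start, taken to be the same one, is that whose promoter holds AGGTGGCGC. A second region, chr7:130130713-130131002, was called in D3 only at percentile 0.452, 4.67 to 4.96 kb after the start. The later MEST promoter, whose start is 5.88 kb after the first, had no peak in any list at that distance. The lists do not tell which MEST start is the paternally expressed one, so the region over the first start is not shown to lie at an imprinted promoter.

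PEG10, a paternally expressed gene derived from a retrotransposon, shares its promoter region with the neighbouring gene SGCE. Its single region, chr7:94285021-94286430, covered the start in all 3 lists. It was at percentile 48.9 in WT, 82.0 in D3 and 50.6 in E4, so D3 was high and the others were close together. The differences among shared regions were −27.2 points for D3 and 0.0969 for E4. PEG3, a paternally expressed zinc-finger gene, had chr19:57348645-57349610 in D3 only, 2.49 to 3.45 kb after its start, with a fold of 3.11 at percentile 3.998. The PEG3 peak was not among the strongest 38645 D3 peaks, the number that the shortest list holds, and the nearest E4 and WT peaks lay 261.0 and 88.6 kb from it.

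Overlap of WT peaks by the clones was near that of the whole series. D3 overlapped 37 of the 38 WT peaks at these loci, or 97.4% (86.2 to 99.9), against 95.9% of all WT peaks. E4 overlapped 32 of 38, or 84.2% (68.7 to 94.0), against 85.7%. All 21 WT peaks above a percentile of 50 were overlapped by E4, and 98.4% of such peaks were over the genome. The 6 that E4 lacked were in IGF2, KCNQ1 and GNAS and near TH and ASCL2, and all were among the weaker 17, where E4 overlapped 64.7% (38.3 to 85.8) against 73.1% in the series. At GNAS the WT peak without E4 overlap was the weaker of the pair in chr20:57437861-57440015. Of the 36 regions that both clones called, 5 had no WT peak, against 14.7% in the series.

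The median percentile of the 31 regions shared by all lists was 83.2 in D3, 81.1 in E4 and 74.95 in WT, against 71.5, 58.4 and 57.01 over all shared regions. The 28 shared regions of the other imprinted genes described below had medians of 69.7, 48.8 and 59.4, so those of D3 and E4 were below the level of all shared regions there. Of the 31 regions, 25 lie in the chromosome 11 stretch. Peaks of the 31 regions had median widths of 1340 bp in D3, 1094 bp in E4 and 809 bp in WT, against 1116, 821 and 686 bp over all shared regions. With 1 library per population these medians describe the lists, and neighbouring regions of a locus are not independent.

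By shared percentile WT stood lower than D3 in 14 of 31 regions (background 49.9%) and lower than E4 in 16 (background 50.9%). The median difference, WT minus clone, was 0.36 points for D3 and −2.05 points for E4, against 0.0215 and −0.271 over all shared regions. None of the 31 differences from D3 lay outside the central 95% of all shared regions (−38.6 to 38.1), and 1 of the 31 from E4 did (−38.5 to 40.4), the GNAS region named above. The 2 sets of differences share the WT library. WT stood lower than both clones in 8 of 31 regions (background 35.1%). The D3 median turned negative under 2 alternatives, −3.19 points when only peaks with a −log10 q of at least 5 were kept and −9.89 points when ranked within whole lists, where all shared regions had −11.2.

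**Figure D5:**
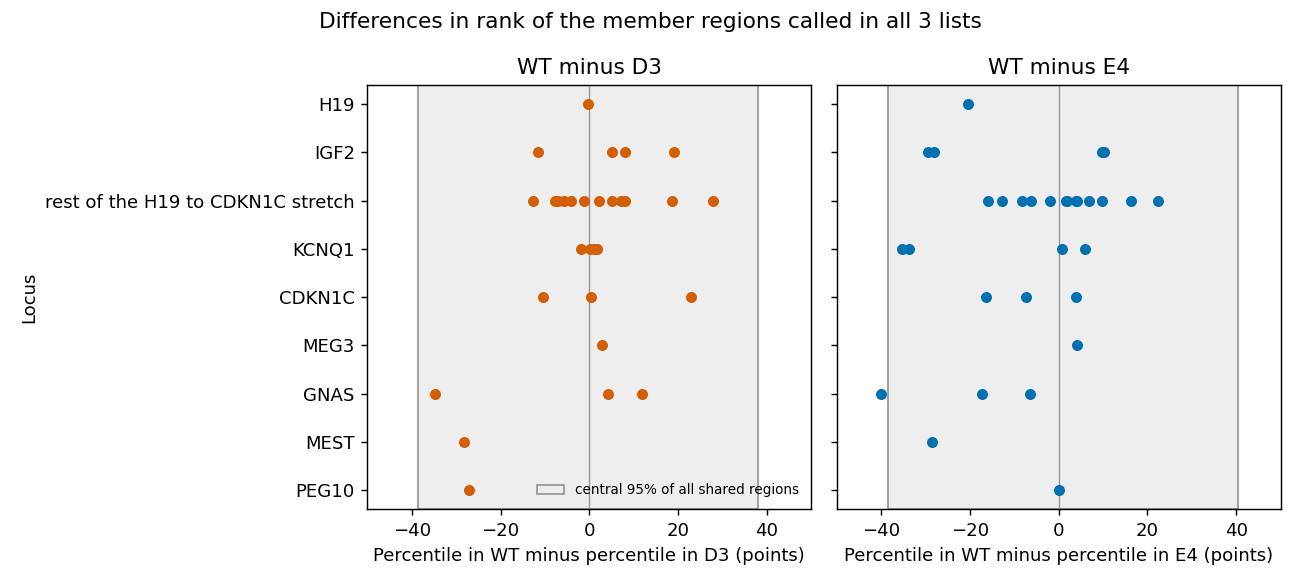
Difference in percentile (x axis, points) between WT and D3 (left) and between WT and E4 (right) for each of the 31 regions called in all 3 lists, by locus (y axis), ranked within the shared regions. The grey band holds the central 95% of all 32495 shared regions, and 1 GNAS point at −40.1 in the right panel lies outside it.

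The other imprinted genes were a list of 24, and their regions were counted apart from those described above. Of these genes 17 had a peak in every list, SGCE through the PEG10 region, and 28 of the 53 further regions (52.8%) were called in all 3. A further 15 were called in D3 only, 7 in both clones and 2 in D3 and WT. Over all regions of the series, 53.9% were called in all 3 lists. The D3 only class held 26.1%, both clones 9.31%, and D3 and WT 6.62%. PHLDA2, next to CDKN1C, shared a strong region with SLC22A18 at chr11:2950534-2952975, at percentile 98.2 in D3, 97.3 in E4 and 97.7 in WT. HM13, a signal peptide peptidase gene on chromosome 20, had 7 regions of which 5 were common to all lists. GRB10, an adaptor of growth factor receptors, had 12 D3, 6 E4 and 5 WT peaks. ZDBF2, FAM50B, RTL1, MKRN3, SNRPN and ZIM2 had a peak in D3 and in neither other list, that of ZIM2 being the PEG3 region. At equal list length 0 of these 6 genes had a D3 peak. NDN had no peak in any library.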

How the data were processed

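Per the labels' protocols, HCT-116 chromatin was fixed with formaldehyde, sonicated and precipitated with an antibody against CTCF, and sequenced with paired ends. The submitters' processing notes list, with no role or order, MACS2 (2.2.7.1), Picard (2.23.1), CASAVA (1.8.2), bedtools (2.29.2) and hg19 as the build. Which aligner and which peak settings were used is not given in the sources used here. For each library the authors deposited 1 broad peak list, with a fold enrichment (a ratio over the caller's background), a −log10 p, a −log10 q and a score per peak. The score and the −log10 p that the authors deposited were not used. Each value is the authors' own and ranks peaks within that list. Folds printed side by side describe each list, and their levels differ between lists.

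Peaks overlapping by at least 1 bp were merged with Python 3.11.15 and pandas 2.3.3, and the functions were tested on simulated peaks. Gene positions on hg19 were written from general knowledge. RefSeq (GRCh38.p14) gave the same chromosome for 42 of 42 genes and the same order on 11 of 11 chromosomes. No exon or intron assignment was made. With 1 library per population no test was run, and p-values were not computed.

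The members, gene lists, spellings of motifs and alternatives were chosen with earlier results of these data known. Every member is described. Of several RefSeq starts per gene, promoters are printed for the first start of H19, GNAS and MEST and for the later GNAS and MEST starts with a motif match, a choice made after the matches had been seen. Positions are given for the strongest WT region of each, the region nearest each start, regions missing from a list reaching a −log10 q of 5 in any, the extremes of the rank differences, and a few others that were picked after their values had been seen.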

Additional observations from a re-analysis of the deposited data

Results flagged for a closer look

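Counted in the full lists, which differ in length, the numbers of peaks at KCNQ1 and over the stretch from H19 to CDKN1C moved in opposite directions in the clones. At KCNQ1 the D3 list held 7 peaks, that of E4 4 and that of WT 6, which makes a D3 minus WT of 1 and an E4 minus WT of −2. Over the stretch, D3 had 41, E4 28 and WT 31, which gives 10 for D3 minus WT and −3 for E4 minus WT. The stretch contains KCNQ1, so the 2 observations share peaks. With 1 library per population these differences were not tested. They have to be read against list length, since the D3 list is the longest (57935 peaks, against 39434 for E4 and 38645 for WT). At equal list length D3 and E4 both lay below WT, with 5, 4 and 6 peaks at KCNQ1 and 26, 25 and 31 over the stretch. With peaks limited to a −log10 q of at least 5, KCNQ1 had 5 in D3, 3 in E4 and 1 in WT. Over the stretch that limit left 26, 22 and 18. WT was then the lowest, so the order of the lists depended on the filter.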

How the results depend on the processing

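No paired analysis was possible because each population had 1 library, so that none could be left out either. Of 46 alternatives to the 8 main results, 27 stayed within the interval of the share or within 1.5 times the value, 17 moved and 2 reversed. With peaks limited to a −log10 q of at least 5, 67.6% of the regions were called in all 3 lists (46.5% over the series), D3 and E4 each overlapped 100% of the WT peaks (99.2% and 91.2%), 0 regions were called in WT only (0.548%) and 6 of 34 in D3 only (30.9%). The same setting gave a median rank difference of −3.19 points for D3, reversed in sign, and −3.65 for E4. At equal list length 75% were called in all 3 lists (65.5% over the series), 2 regions of both clones lacked WT (8.43%), 4 were called in WT only (8.64%) and 1 in D3 only (7.38%). Under a rule of 50% coverage of a region by a list, 37.9% counted for all 3 lists (31.0% over the series) and 26 of 56 for D3 only (37.6%). With 50 kb around the genes, 2 regions were called in WT only, and the rank differences were 0.739 points for D3 and −0.148 for E4. Ranking by the authors' fold gave 2.40 and −3.20 points, and ranking within whole lists gave −9.89 for D3, also reversed. A flank of 0 kb gave the same 58 regions, so it could move none of the main values, and its results are among the 27. Counts of peaks per window at equal length or with a −log10 q of at least 5, added after seeing the data, moved in 21 of 72 cases. List length and filtering lower counts by construction, and otherwise the cause was not tested. The depth is unknown, so the absence of a weak peak from a list does not show absence of binding.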
